A study of Sus scrofa with 8 samples.

Results

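The solute carriers measured in sow blood were taken by gene name: array probes whose RefSeq transcript belongs to a pig gene with a symbol of SLC followed by a digit. The rule gave 64 genes with 137 probes, out of 2389 named genes and 43603 probes on the array. Each gene is described by the probe with the highest mean signal, and 135 of the 137 probes could be measured. A symbol of this form also takes in SLC9A3R1 and SLC9A3R2, scaffold proteins that bind a sodium/proton exchanger and carry nothing themselves. Many carriers known from blood, the anion exchanger of red cells and the main glucose carrier among them, are not among the 64 and were not analysed here.

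Whole blood was drawn from the submandibular vein of 8 sows (Sus scrofa) 14 days after insemination, all at the fifth parity, and the comparison asks which blood RNAs differ between pregnant and non-pregnant sows. Each group had 4 sows, and each sow had 1 single-colour Agilent array, called here by group and replicate number. The sows were chosen as 3 half-sib pairs and 1 unrelated pair, but the labels do not tie the replicate number to a pair. Replicates 1 and 3 of both groups lay on slide 1, and replicates 2 and 4 on slide 2. With 1 array a sow, the spread within a group holds the difference between animals and between arrays together. The labels name no breed, no treatment and no count of blood cells.

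Solute carriers are membrane proteins that move ions, nutrients, metabolites and drugs across the cell surface or the membranes of organelles. Members of a family often, though not always, share a kind of cargo. Most solute carriers are facilitators or are driven by a gradient of sodium, protons or another solute rather than by ATP. In blood, phagocytes move metal ions out of vesicles that hold microbes, activated lymphocytes take up amino acids and glucose, and all nucleated cells exchange ATP, phosphate and vitamins across the inner mitochondrial membrane.

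All values are log2 of the processed spot signal minus the 75th percentile of that array, so 0 is the brightness of the probe at the upper quartile. A probe counts as detected where the scanner software marked it well above background. Different probes bind with different strength, so a value is read across sows and never against another gene's value. The 75th percentile of the signal ran from 142 on the array of pregnant replicate 2 to 296 on pregnant replicate 1, and from 175 up on the other 7 arrays, with 61.7% to 69.2% of probes well above background and no saturated spot. Pregnant replicate 2 stands apart from the rest: the lowest correlation between any 2 arrays was 0.870, and without that array it was 0.946. The number of arrays, 4 a group, limits the precision of every comparison.

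A gene counts as detected on an array where any of its probes was, and its other probes may lie at background. Of the 64 genes, 41 were detected on all 8 arrays, 15 on some and 8 on none. That is 64.1% detected throughout, against 72.0% of the 2382 named genes that could be measured, and 12.5% detected nowhere, against 12.7%. Single arrays detected between 44 and 53 of the 64, with pregnant replicate 1 lowest and pregnant replicate 4 highest. The substrate classes below follow the family number. A gene's own cargo can differ from its family's, which is said below for some genes but not for all.

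**Figure D1:**
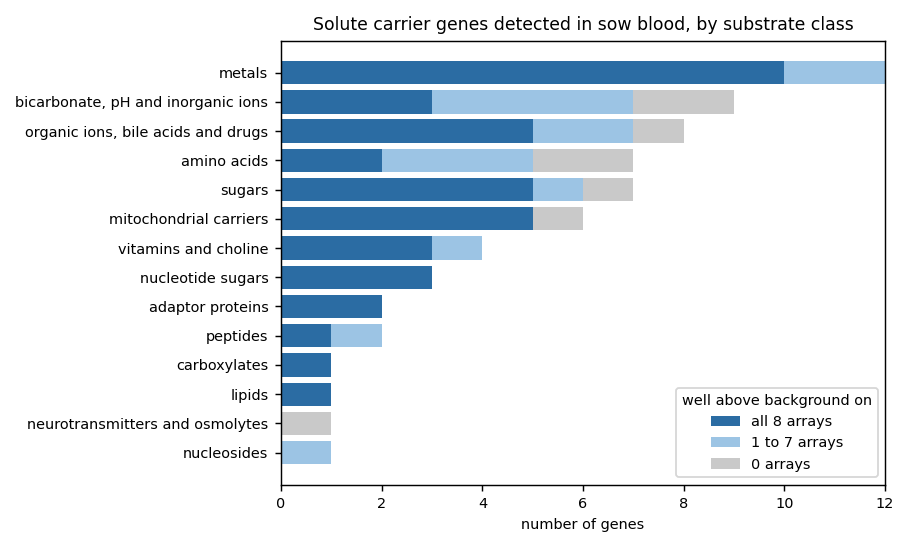
Number of solute carrier genes in each substrate class (horizontal axis, genes), by the arrays on which any of their probes was well above background. Dark blue is all 8 arrays, light blue 1 to 7 arrays and grey 0 arrays. Metal carriers were detected throughout in 10 of 12 genes and amino acid carriers in 2 of 7.

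Metal carriers were the largest class, and 10 of its 12 genes were detected on all 8 arrays. Among them were SLC11A1, the proton-coupled metal transporter of phagocyte vesicles, and SLC11A2, which brings iron out of endosomes and into cells. Of the SLC30 family of zinc exporters, 7 of 8 genes were detected on all arrays. Most of that family move zinc from the cytosol into organelles or out of the cell. SLC39A7, which releases zinc from the endoplasmic reticulum, was detected too. The remaining pair rose above background in few sows: SLC30A2 was detected on 2 arrays, and SLC31A1, the copper uptake carrier, on 2 arrays, both from non-pregnant sows.

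The carriers of the inner mitochondrial membrane had 5 of 6 genes detected throughout. Among these were SLC25A6, which exchanges ADP for ATP, SLC25A3, which brings in phosphate, SLC25A24, which exchanges ATP-Mg for phosphate, and SLC25A27, an uncoupling protein best known from brain. SLC25A25, another ATP-Mg carrier, was detected in no sow.

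Of 7 amino acid carriers, 2 were detected on all arrays. Those were SLC7A1, which takes up arginine and lysine, and SLC7A7, which exchanges such cationic amino acids for neutral ones and is known from monocytes and macrophages. The glutamate carrier SLC1A1 was detected on 5 arrays, the cationic amino acid carrier SLC7A2 on 5, and SLC3A1, the partner subunit of the kidney cystine carrier, on 4. SLC7A3 and SLC7A9, the second of which is that kidney cystine carrier, were detected on 0 arrays.

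In the sugar families 5 of 7 genes were detected on all 8 arrays: SLC2A4, the insulin-responsive glucose carrier, and 4 of the 5 sodium-coupled SLC5 genes. The SLC5 genes were SLC5A1, the sodium/glucose carrier of the gut, SLC5A4, a sodium/glucose carrier relative, SLC5A10, which carries mannose and fructose, and SLC5A5, which despite its family carries iodide into the thyroid. The inositol carrier SLC5A11 was detected on 5 arrays, and SLC2A2, the glucose carrier of liver and beta cells, on none.

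Among carriers of organic ions, bile acids and drugs 5 of 8 genes were detected throughout, namely SLC10A7, SLC22A2, SLC22A4, SLC22A6 and SLC22A7. SLC10A7 is placed here by its family number only. Other probes of these genes were often dimmer: those of SLC22A2 were detected on 2 and 0 arrays and that of SLC22A6 on 2. The other SLC10A7 probe was detected on 6 arrays and the other SLC22A4 probe on all 8. SLC22A4 takes up ergothioneine and is known from myeloid cells, while SLC22A2, SLC22A6 and SLC22A7 are organic cation and anion carriers best known from kidney and liver. SLC17A1 and SLC22A8, both organic anion carriers of kidney, were detected on 1 array each and SLC22A13 on none. All 3 nucleotide sugar carriers of the Golgi family SLC35 (SLC35A3, SLC35A4 and SLC35C2), the lactate carrier SLC16A1 and the fatty acid carrier SLC27A1 were detected on all 8 arrays.

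Carriers of bicarbonate, protons and inorganic ions had 3 of 9 genes detected on all arrays: the potassium-chloride cotransporter SLC12A4, which regulates cell volume, and the anion exchangers SLC26A6 and SLC26A11. SLC26A5, the motor protein of outer hair cells, and SLC34A1, the kidney phosphate carrier, were detected on 7 arrays, SLC4A4, a sodium-bicarbonate cotransporter, on 5 and the exchanger SLC9A2 on 1. SLC26A3, an intestinal chloride/bicarbonate exchanger, was detected on 0 arrays.

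Of the smaller classes, the vitamin carriers SLC19A2 (thiamine), SLC44A4 (choline and thiamine pyrophosphate) and SLC52A2 (riboflavin) were detected throughout, and SLC23A2, which takes up vitamin C, on 6 arrays. The peptide carrier SLC15A2 was detected on all 8 arrays and its intestinal relative SLC15A1 on 3. SLC28A1, which takes up pyrimidine nucleosides, was detected on 6, and SLC6A8, the creatine carrier, on none. Both scaffold proteins were detected throughout.

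No solute carrier passed the test between pregnant and non-pregnant sows. The fit covered the 26480 probes that were detected in every sow of 1 group or of both, and 45 of the 64 solute carrier genes passed that filter. Limma called 0 of the 45 at an adjusted p under 0.05, and it called 0.0% of all 26480 probes in either direction, the smallest adjusted p over all of them being 0.525. At an unadjusted p under 0.05, 1 gene of the 45 was higher in the pregnant group, where 1.53% of all probes were, and 0 were lower, where 0.763% of all probes were. The groups did not overlap for 1 gene with the pregnant sows above, against 0.895% of all probes, and for 0 genes with the pregnant sows below, against 0.672%. A count of 1 in 45 genes is near these background shares. That gene, SLC23A2, passed the filter only through the pregnant group.

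The differences were also small. The median over the 45 genes was -0.02 on the log2 scale, against -0.04 over all probes, with 20 of 45 genes above 0 (44.4%, against 43.5% of all probes). None of the 45 probes that stand for the genes differed by 2-fold or more between the group means, while 1 of all 88 tested carrier probes and 2.14% of all probes did. The median size of a difference was 0.17 against 0.18 over all probes. The median 95% interval reached 0.67 to either side, so a difference of the size seen in most of these genes was not detectable with 4 sows a group. Of the 45, 41 were detected on all 8 arrays. SLC23A2 passed the filter only through the pregnant group, and SLC26A5, SLC28A1 and SLC34A1 only through the non-pregnant group. Because blood is a mixture, fewer cells of a type and less RNA per cell cannot be told apart in any of these values.

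**Figure D2:**
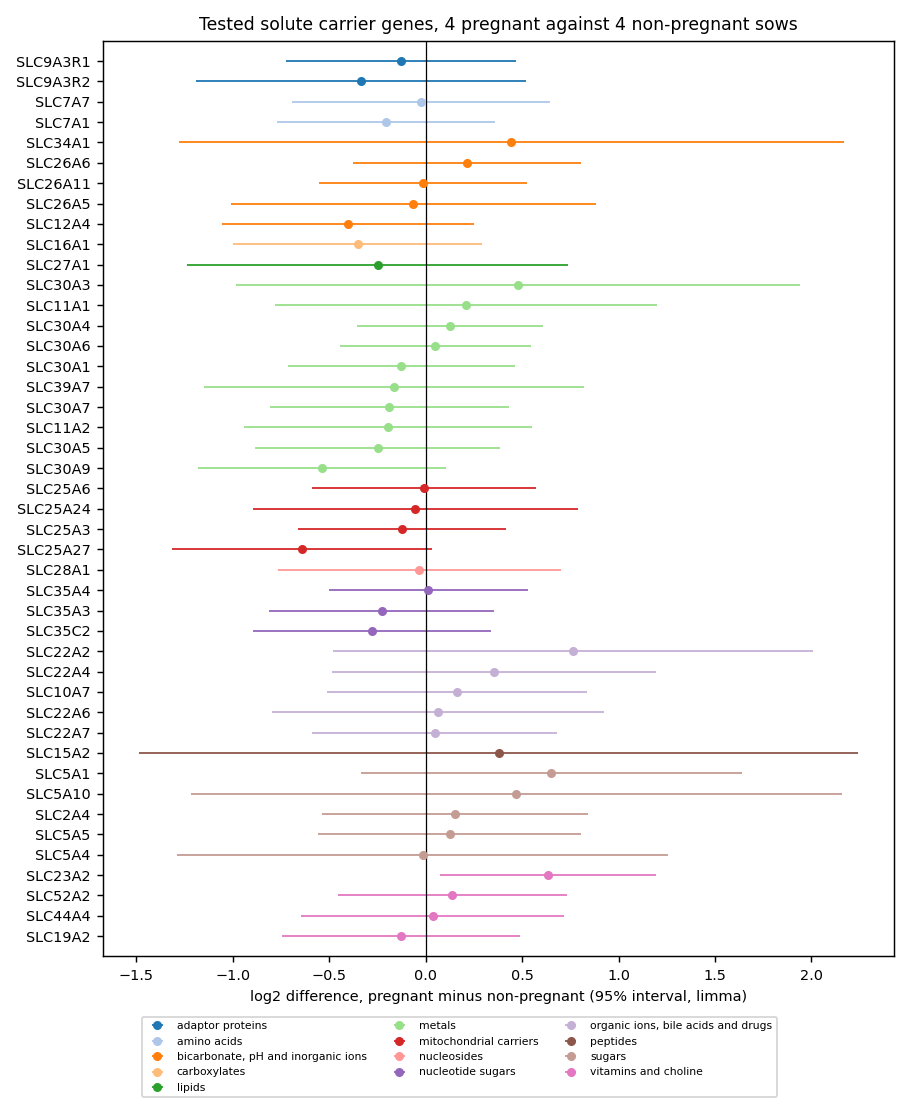
Difference between the means of 4 pregnant and 4 non-pregnant sows for 44 of the 45 tested genes (horizontal axis, log2 units, pregnant minus non-pregnant), with the 95% interval from limma as a line and the substrate class as colour. Only the interval of SLC23A2, 0.08 to 1.19, leaves out 0, and it does so before adjustment for 26480 probes. SLC23A2 passed the filter only through the pregnant group.

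SLC23A2, the vitamin C carrier of most tissues, was the gene whose groups did not overlap. Its values were -3.79, -3.47, -4.07 and -3.85 in pregnant replicates 1 to 4 and -4.30, -4.83, -4.39 and -4.20 in non-pregnant replicates 1 to 4. The probe is dim, and was detected in all 4 pregnant sows but in only 2 of the non-pregnant sows. It passed the filter only through the pregnant group, where it was higher, so its interval, p and lack of overlap are no independent support. The other non-pregnant values were not well above background, so the fold is not a measured ratio. The lowest pregnant sow, replicate 3, lay just above the highest non-pregnant sow, replicate 4. The group means, -3.80 ± 0.25 and -4.43 ± 0.27 (SD, n = 4 each), differed by 0.63 with a 95% interval of 0.08 to 1.19 (1.55-fold, limma adjusted p = 1.00, an unadjusted p under 0.05). The difference was 0.41 between the sows on slide 1 and 0.86 between those on slide 2. It was 0.59 under quantile normalization and in the authors' deposited log2 table, where the groups overlapped, and 0.05 with normexp background correction. The unadjusted p was over 0.05 without pregnant replicate 1, pregnant replicate 2 or non-pregnant replicate 2.

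None of the other vitamin carriers was called. SLC52A2 was 0.59, 0.43, 0.65 and 1.35 in the pregnant sows and 0.48, 0.49, 0.68 and 0.82 in the non-pregnant sows, a difference of 0.14, with pregnant replicate 4 highest. Its 3 tested probes gave differences from 0.01 to 0.76 and deviations on pregnant replicate 2 from -0.29 to 1.55. SLC19A2 was -0.10, -0.67, -0.76 and 0.23 against -0.15, -0.28, -0.09 and -0.27, a difference of -0.13 with the pregnant sows both highest and lowest. For SLC44A4 the difference was 0.04.

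The mitochondrial carriers all had a lower mean in the pregnant group, 5 of 5, with a median of -0.09, and none passed the test. SLC25A27 had the largest difference: -2.08, -3.28, -2.76 and -2.99 in the pregnant sows and -1.98, -2.20, -2.47 and -1.90 in the non-pregnant sows. In 3 of the 4 pregnant sows it was below every non-pregnant sow, and pregnant replicate 1 lay among them. The difference was -0.64 (limma adjusted p = 1.00), -0.19 on slide 1 and -1.09 on slide 2.

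The phosphate and ATP carriers of mitochondria varied little between sows. SLC25A3 was 6.15, 5.50, 5.82 and 6.0 in the pregnant sows and 6.11, 6.03, 5.73 and 6.08 in the non-pregnant sows, a difference of -0.12, with pregnant replicate 2 lowest. SLC25A6 was 8.11, 8.24, 7.93 and 7.48 against 7.89, 8.06, 7.63 and 8.23, a difference of -0.01. These genes have many probes: 10 tested probes of SLC25A3 gave differences of -0.23 to -0.03, and 6 of SLC25A6 gave -0.05 to 0.16. SLC25A6 has near-identical paralogs, whose RNA its probes may also bind. The direction shared by the 5 carriers does not hold on slide 1, where 4 of 5 were higher, nor without non-pregnant replicate 4, where 3 of 5 were higher. It was 4 of 5 under quantile normalization.

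Metal carriers were split, with 4 of 10 tested genes above 0 and a median of -0.15. The zinc exporter SLC30A9 had the largest difference of the class below 0, with -0.05, -0.71, -0.68 and -0.44 in the pregnant sows and 0.35, -0.44, -0.12 and 0.48 in the non-pregnant sows. The groups overlap through pregnant replicate 1 and non-pregnant replicate 2. The difference was -0.54 (limma adjusted p = 1.00), -0.48 on slide 1 and -0.59 on slide 2, and a second SLC30A9 probe gave -0.24.

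SLC11A1, the phagocyte metal transporter, differed far more between sows than between groups. It was 2.49, 2.23, 3.34 and 3.75 in the pregnant sows and 2.79, 2.13, 3.73 and 2.32 in the non-pregnant sows. On this brightest probe pregnant replicates 3 and 4 and non-pregnant replicate 3 were high, and the groups overlap over nearly their whole range. The means were 2.95 ± 0.71 and 2.74 ± 0.71 (SD, n = 4 each), a difference of 0.21 that was -0.34 on slide 1 and 0.76 on slide 2. A second tested SLC11A1 probe, also detected on all 8 arrays, gave a difference of -0.01 and another order of sows. That probe was 2.89, 1.31, 2.67 and 2.27 in the pregnant sows and 2.30, 2.09, 2.17 and 2.61 in the non-pregnant sows.

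SLC11A2 was -0.52, -2.03, -0.98 and -1.31 in the pregnant sows and -1.24, -1.12, -0.67 and -1.03 in the non-pregnant sows. Its difference of -0.19 became 0.08 without pregnant replicate 2. The plasma membrane zinc exporter SLC30A1 was -0.28, -1.11, -0.71 and -0.40 against -0.54, -0.74, -0.48 and -0.24, a difference of -0.13. The zinc exporters of the secretory pathway gave 0.13 for SLC30A4, -0.25 for SLC30A5, 0.05 for SLC30A6 and -0.19 for SLC30A7. None of these passed the test.

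Carriers of organic ions had a higher mean in the pregnant group in 5 of 5 genes, with a median of 0.16, and again none passed the test. SLC22A2 had the largest difference of all 45 genes: -3.33, -0.82, -2.48 and -3.06 in the pregnant sows and -3.32, -2.54, -2.77 and -4.13 in the non-pregnant sows. Pregnant replicate 2 stood above the other 7 sows, which overlapped. The difference of 0.76 (95% interval -0.48 to 2.01) was 0.23 without that sow.

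SLC22A4, the ergothioneine carrier, was 1.96, 3.31, 2.69 and 1.55 in the pregnant sows and 1.97, 2.14, 2.26 and 1.72 in the non-pregnant sows. On this brightest probe pregnant replicates 2 and 3 were the high ones and pregnant replicate 4 the lowest of all. The difference of 0.35 was 0.04 without pregnant replicate 2. A second tested SLC22A4 probe, dimmer but detected on all 8 arrays, gave a difference of 0.11 and another order of sows. That probe was -2.95, -3.13, -3.52 and -3.10 in the pregnant sows and -2.39, -3.96, -3.72 and -3.07 in the non-pregnant sows. By their brightest probes, all 4 tested SLC22 genes were highest on the array of pregnant replicate 2. Without it, 2 of the 4 were higher in the pregnant group and 2 lower. SLC10A7, the class's member outside that family, differed by 0.16.

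The sugar families lay above 0 in 4 of 5 tested genes, with a median of 0.15, counting the iodide carrier SLC5A5 at 0.12. SLC5A1 was -3.11, -0.98, -2.04 and -2.44 in the pregnant sows and -2.88, -2.13, -3.23 and -2.95 in the non-pregnant sows, with pregnant replicate 2 highest. Its difference was 0.65 (95% interval -0.34 to 1.64) and 0.26 without that sow. SLC5A4 was high in a sow of each group, -0.72 in pregnant replicate 1 and -0.37 in non-pregnant replicate 1, while the other 6 lay between -2.71 and -1.72. Its group difference was -0.02.

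The insulin-responsive glucose carrier SLC2A4 was -3.54, -3.29, -3.50 and -2.55 in the pregnant sows and -3.72, -3.13, -3.67 and -2.99 in the non-pregnant sows, a difference of 0.15. A second SLC2A4 probe, named here after its values were seen, had group means 1.13 apart (limma adjusted p = 1.00). It was detected in every pregnant sow but in 2 of the 4 non-pregnant sows, so it passed the filter only through the pregnant group, and values such as -5.92 in non-pregnant replicate 1 were not well above background. The lactate and pyruvate carrier SLC16A1 was -2.23, -2.38, -1.72 and -1.61 in the pregnant sows and -1.97, -1.80, -1.62 and -1.13 in the non-pregnant sows. Its 3 probes gave differences of -0.42 to -0.27, and the groups overlapped. The fatty acid carrier SLC27A1 differed by -0.25, with pregnant replicate 4 lowest at -2.64 and non-pregnant replicate 4 highest at -0.43.

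The amino acid carriers differed between the groups by less than the spread of the sows. SLC7A7 was 3.24, 2.81, 2.90 and 3.78 in the pregnant sows and 3.17, 3.16, 2.82 and 3.68 in the non-pregnant sows, with replicate 4 highest in each group. The difference was -0.03. Its 95% interval, -0.70 to 0.65, does not exclude a change within that range in either direction. The 4 tested SLC7A7 probes gave differences from -0.03, the brightest probe, to 0.25. SLC7A1 was 3.58, 3.07, 3.23 and 3.31 against 3.31, 3.51, 3.25 and 3.95, a difference of -0.21 with non-pregnant replicate 4 highest.

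Of the ion carriers, SLC12A4 was -1.22, -2.0, -1.71 and -1.77 in the pregnant sows and -1.74, -1.45, -1.15 and -0.75 in the non-pregnant sows. Its difference of -0.40 was -0.02 on slide 1 and -0.79 on slide 2. SLC26A6 differed by 0.22 and SLC26A11 by -0.01. The nucleotide sugar carriers gave -0.23 for SLC35A3, which serves N-glycan branching, 0.01 for SLC35A4 and -0.28 for SLC35C2. The scaffold proteins gave -0.13 for SLC9A3R1 and -0.33 for SLC9A3R2, and the nucleoside carrier SLC28A1 -0.03. All of these groups overlapped.

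**Figure D3:**
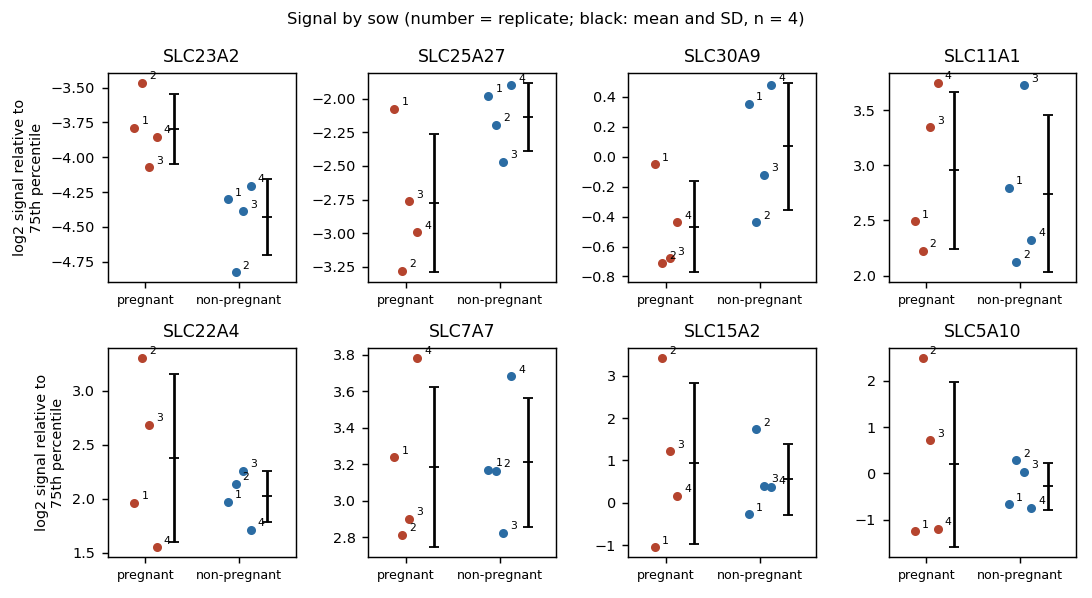
Log2 signal relative to the array's 75th percentile (vertical axis, a separate scale for each gene) in each of the 4 pregnant (red) and 4 non-pregnant (blue) sows, numbered by replicate, with the group mean and SD in black, for 8 genes. The groups are apart only for SLC23A2, and pregnant replicate 2 is the highest sow for SLC22A4, SLC15A2 and SLC5A10. The 8 genes were picked after their values were seen.

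Several of the carriers that varied most between sows were at an extreme on pregnant replicate 2, the array that stands apart over all probes. Pregnant replicate 2 was the highest sow for 14 of the 45 genes and the lowest for 17, against 21.8% and 37.8% of all probes. Non-pregnant replicate 4 was the highest for 16. On pregnant replicate 2, 8 carriers lay more than 1 log2 unit above the mean of the other 7 sows, where 16% of all probes did, and 3 lay more than 1 below, where 9.83% did. Of the 8 genes with the largest SD over all sows, 6 were highest on pregnant replicate 2 and 4 were lowest on pregnant replicate 1. The matching shares over equally variable probes, and over all probes for non-pregnant replicate 4, were not counted. None of these counts is read as a trait of the carriers.

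The peptide carrier SLC15A2 had the widest gap. It was 3.42 on pregnant replicate 2 and between -1.04 and 1.73 in the other 7 sows, 3.05 above their mean. SLC5A10, the mannose and fructose carrier, was 2.50 there and -1.25 to 0.72 elsewhere. SLC30A3, a zinc carrier of synaptic vesicles, was 4.53 there and 1.32 to 3.09 elsewhere.

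SLC34A1, the kidney phosphate carrier, was -0.41 on pregnant replicate 2 and -4.85 to -2.37 in the other sows. The 3 that lay more than 1 below the other sows were SLC39A7 at -1.12, SLC11A2 at -1.04 and SLC25A24 at -1.02 from their mean. Without pregnant replicate 2 the group difference turned from 0.38 to -0.45 for SLC15A2, from 0.47 to -0.30 for SLC5A10, from 0.48 to -0.15 for SLC30A3 and from 0.44 to -0.31 for SLC34A1. Over all 45 genes the median difference ranged from -0.07 to 0.05 as each sow was left out in turn.

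**Figure D4:**
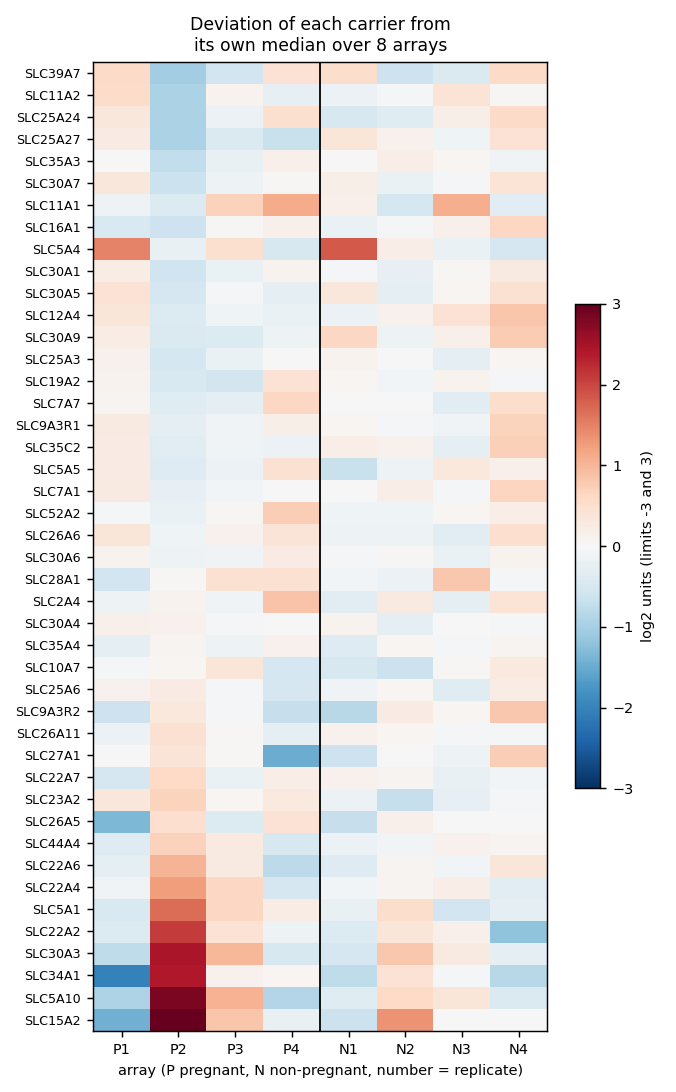
Deviation of 44 of the 45 tested genes (rows) from its own median over the 8 arrays (columns; P pregnant, N non-pregnant, number = replicate), in log2 units on a colour scale limited to -3 and 3, rows ordered by pregnant replicate 2 minus the mean of the other 7. Column P2 holds the deepest red and several of the blue cells, from SLC15A2, 3.05 above the other arrays, to SLC39A7, 1.12 below.

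Other probes of the same gene did not always follow. Probes of a gene share their target RNA and are no replicates of a condition. Of 23 genes with more than 1 tested probe, 14 had all differences between the groups on the same side of 0 and 9 did not. The median spread between probes of a gene was 0.22. In 4 of the 9 it was over 0.5: SLC15A2, SLC39A7, SLC44A4 and SLC5A10. Among genes whose probes shared a sign it was also over 0.5 for SLC2A4 and SLC52A2.

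On pregnant replicate 2 the second SLC15A2 probe deviated from the other sows' mean by -0.51, against 3.05 for the brightest probe. The second SLC5A10 probe deviated there by 0.24, against 2.91. SLC5A5, picked out after its values were seen, showed the reverse order. Its brightest probe deviated by -0.41, and its second by 3.98, with 2.47 on pregnant replicate 2 and -3.11 to 0.31 elsewhere. In 16 of the 23 genes all tested probes deviated to the same side on that array.

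**Figure D5:**
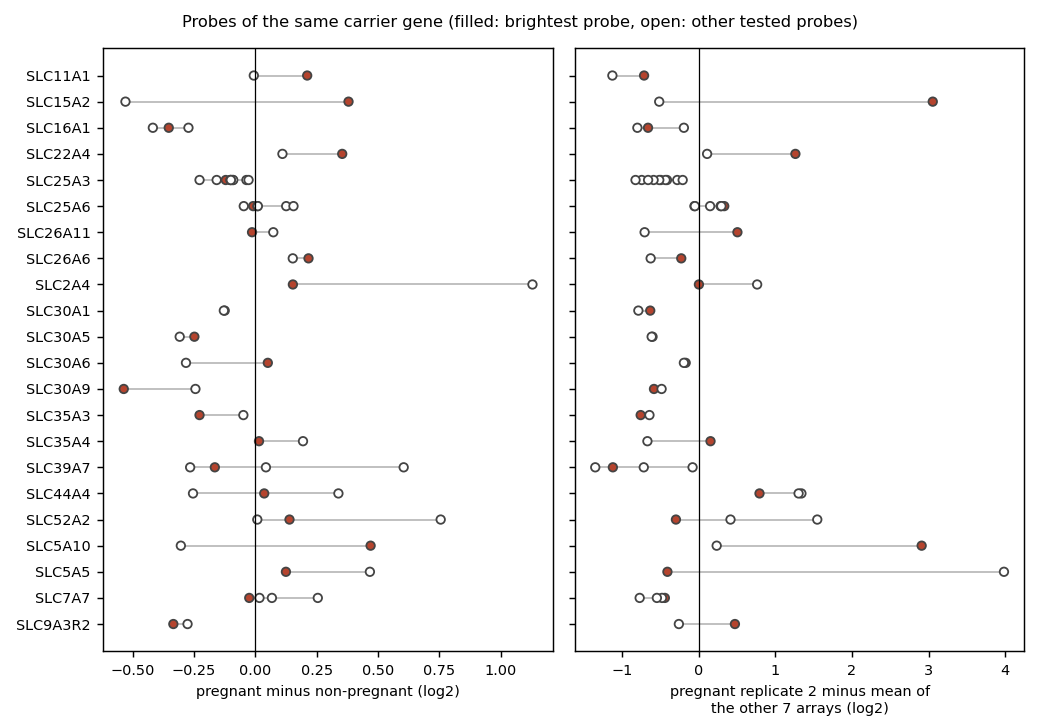
For 22 of the 23 genes with more than 1 tested probe, each probe's difference between the groups (left, pregnant minus non-pregnant, log2 units) and its deviation on pregnant replicate 2 from the mean of the other 7 arrays (right, log2 units); filled circles are the brightest probe and open circles the others. The probes of SLC25A3 lie close together on the left, from -0.23 to -0.03, while those of SLC15A2 lie on opposite sides in both panels.

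Differences often changed sign between the slides, about as often as over all probes. With 2 sows of each group on each slide, 19 of the 45 genes had a difference of the same sign on both (43.8% of all probes did). Pregnant replicate 2, the array that stands apart, is 1 of the 2 pregnant sows on slide 2. The slide and that array cannot be told apart in any slide 2 value. On slide 1 the groups did not overlap for 6 genes with the pregnant sows above, where 11.8% of all probes did so, and for 0 with them below, where 11.1% did. On slide 2 these counts were 5 above, against 12.7% of all probes, and 7 below, against 15.2%. On slide 1, 30 genes were above 0 with a median of 0.05, and on slide 2, 20 genes with a median of -0.06. SLC23A2, SLC30A9, SLC16A1, SLC5A1 and SLC22A4 were among those that kept their sign.

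Genes that work with the carriers were measured in the same fit, and limma called none of those tested on any list. Of 8 tested partners in glucose and lactate metabolism, 3 were above 0 and 5 below, with a median of -0.07 and 0 at an unadjusted p under 0.05. Of 7 iron and heme handling genes, 5 were above and 2 below, with a median of 0.24 and again 0 at that p. The transferrin receptor TFRC was not well above background on any array. In amino acid sensing only ATF4 at -0.18 and DDIT3 at 0.27, both stress-responsive transcription factors, could be tested. Of 17 other membrane transporters (ABC carriers, ion pumps and aquaporins), 5 were above and 12 below, with a median of -0.10. The aquaporin AQP10, at 0.72, was the member of that list at an unadjusted p under 0.05 (limma adjusted p = 1.00).

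Markers of some blood cell types lay to the same side in every gene, and none was called by limma. All 8 tested monocyte and macrophage markers were above 0 in the pregnant group, with a median of 0.38. Their mean log2 level was 1.98 to 2.17 in the pregnant sows and 1.45 to 1.90 in the non-pregnant sows, and the log2 of their summed level was 6.02 to 6.32 and 5.54 to 5.89, both with no overlap. Of 15 listed markers, 8 were on the array. Their differences ran from 0.09 for CD86 to 0.65 for LYZ, the brightest probe, at 4.89 to 5.47 against 3.85 to 4.93. How often other gene lists separate the groups in this way was not computed, so the lack of overlap is description only. A sum is carried by the brightest probes of its list, so means are given for the other lists, with the sum beside them. With normexp correction 7 of the 8 were above 0. All 8 T cell markers were below 0, with a median of -0.25, means of 1.52 to 2.21 against 2.10 to 2.37 and sums of 5.41 to 5.92 against 5.82 to 6.07, and this held under each scaling tried.

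Of 9 NK and cytotoxic cell markers 8 were below, with a median of -0.53, 1 of them at an unadjusted p under 0.05, with means of 1.77 to 2.26 against 2.00 to 2.72 and sums of 7.67 to 8.14 against 7.54 to 8.38. All 3 B cell markers were below, with means of 0.98 to 1.41 against 1.06 to 1.76 and sums of 3.68 to 4.09 against 3.59 to 4.61. Neutrophil markers were above in 6 of 8, with means of 2.00 to 3.49 against 2.20 to 3.01. Their sum, 5.93 to 7.85 against 6.85 to 9.03, follows the MMP9 probe, at 4.41 to 7.69 against 6.38 to 8.91. Platelet markers were below in 6 of 8, with means of 2.66 to 3.03 against 2.84 to 3.62. Their sum, 10.41 to 11.59 against 10.67 to 11.17, follows the ITGB3 probe, at 10.37 to 11.56 against 10.62 to 11.14. Of the red cell markers only KLF1, a transcription factor of red cell precursors, could be tested, at -0.23. On pregnant replicate 2 the ferritin heavy chain FTH1 was 11.40, against 9.41 to 10.36 in the other pregnant sows and 9.77 to 10.23 in the non-pregnant sows, while IREB2 at -0.01 and CYBRD1 at -1.25 were at their lowest there. Of the other tested genes of that iron and heme list, TF at -1.62, HAMP at 0.10 and MT1A at -1.81 were at their highest there, and HMOX1 was at neither extreme. Over all probes, 21.8% were highest and 37.8% lowest on that array. FTH1 was picked out after its values were seen. The part of these cell types, and of the array itself, in the carriers' values was not tested.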

How the data were processed

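Total RNA of whole blood was labelled with Cy3 and hybridised to 1 array for each of 8 sows. Per the file headers, the deposited scanner files, 1 an array, came from version 10.7.3.1 of Agilent's Feature Extraction. Per the file headers, their processed signal is each spot's intensity on a linear scale after the software's background subtraction, as deposited by the authors. The authors also deposited a value table that holds log2 values with a median of 5.03 in every column. That deposited log2 table correlated with log2 of the processed signal on each array, at a lowest r of 0.999. No source used here says how the authors centred it, and it served only as an alternative.

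Spots of a probe were averaged, 215 probes with every spot marked as an outlier on some array were dropped, and log2 intensity minus each array's 75th percentile was used. Of 5779 probes with a RefSeq transcript, 5461 matched a pig symbol in the RefSeq table (Sscrofa11.1, used for names only); the other 38142 of 43603 probes have no name here. Groups were compared two-sided with limma 3.58.1 in R 4.3.3 (lmFit, eBayes) over 26480 probes, with Benjamini-Hochberg adjustment over all of them at 0.05. Intervals are 95% intervals of that fit. The script was tested on simulated data. Marker sums are log2 of summed linear levels of a list's tested genes.

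The genes named are those whose groups do not overlap, the 10 of smallest p in each direction, up to 3 of smallest p in each class, known blood carriers on the array, the 8 most variable, those detected in only 1 group, and those whose probes disagree by over 0.5; a further few were described to fill a class. The members, gene lists and rule were chosen with earlier results of these data known. Alternatives were other scalings, normexp on the median signal (offset 50), other filters, blocks, array weights, each slide alone, probe means and leaving out each sow. Of the 64 genes, 2 are counted in the totals but are not reported by name or plotted singly here.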

Additional observations from a re-analysis of the deposited data

Results flagged for a closer look

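SLC28A1, the pyrimidine nucleoside carrier, was -3.37 in non-pregnant replicate 3, while the other 3 non-pregnant sows lay between -4.33 and -4.21. The gap to the nearest of them was 0.877 of the group's range, above the 95% critical value of Dixon's test for 4 samples. Of 90 groups checked, 1 was singled out in this way, where chance gives about 1 in 20, or 4.5 groups.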

How the results depend on the processing

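Over 20 alternatives and all 45 tested genes, limma called 0 solute carriers each time, and the smallest adjusted p among named genes was 0.554, for SLC25A27 with array weights. The gene counted as higher at an unadjusted p under 0.05 was lost, leaving 0, under quantile normalization, centring on the array median, normexp correction, the deposited table, the filter for detection on all 8 arrays, the replicate block and either slide alone (0 to 1 as each sow was left out). The count of lower genes at that p rose from 0 to 1 with normexp correction and to 2 with array weights (0 to 1 as each sow was left out). Non-overlapping higher genes numbered 0 under quantile normalization, median centring, normexp correction, the deposited table and detection on all 8 arrays, 6 on slide 1 and 5 on slide 2 (1 to 2 as each sow was left out). Non-overlapping lower genes numbered 7 on slide 2 (0 to 1 as each sow was left out). With 2 sows against 2 on a slide, groups separate more readily by construction, and 11.1% to 15.2% of all probes did so in each direction. The cause of the other changes was not tested.

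The replicate numbers were also fitted as a block. Deviations of same-numbered sows correlated at 0.218, 0.481, 0.434 and -0.117, and in numbers 2 and 3 the same number was the best partner. As not every correlation was over 0.1, the numbers were not taken to pair the sows, which the values leave unsettled. Under the replicate block 0 genes were called and 0 were higher at an unadjusted p under 0.05.

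Of 37 named and tested genes, 11 kept their sign under every alternative in which they were fitted (19 of 20 for SLC23A2, which the filter for detection on all 8 arrays drops) and 26 turned under at least 1; leaving out a sow turned 20 of them. Signal near background limits SLC23A2, SLC26A5, SLC28A1 and SLC34A1 most.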
